A study of Aedes albopictus with 6 samples.

Results

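The Gadd45 genes of *Aedes albopictus*, the Asian tiger mosquito, were examined in RNA-seq libraries of its ovaries. Members were all rows of the deposited gene table annotated as GADD45 alpha-like, which gave 5 of 34479 rows, and all 5 were among the 23529 genes with values. They are LOC109423337, LOC115265440, LOC115261964, LOC109423338 and LOC115261959. Ovaries of 2 groups were profiled, with 3 libraries each (n = 3). One group is labelled control, and the other is labelled as overexpressing Aalpi18529, a PIWI-interacting RNA (piRNA). The series' design text says that its ovaries were treated with a mimic of that RNA after a blood meal. The labels do not say what the controls received, nor give the mosquito strain, age, hours since the blood meal or number of females behind each library. The libraries are therefore taken as separate samples of a group, and p-values measure the spread between them, which may be technical.

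Gadd45 proteins are small, acidic, stress-induced proteins with no enzymatic activity of their own. In mammals they bind the kinase MAP3K4 (MEKK4), which feeds the JNK and p38 kinases, and they bind the cell cycle proteins CDK1, cyclin B and PCNA. In *Drosophila* Gadd45 acts through the JNK pathway. JNK signalling is known to take part in cell death, and the nurse cells that supply an insect oocyte die late in oogenesis. The study's title places Gadd45a between the piRNA and JNK-dependent death of nurse cells, and it gives no locus for that gene. Which of the 5 copies it means was not known here.

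Libraries were of similar depth, from 15719412 to 16465531 estimated counts. Ovarian identity was checked with description-based marker lists. Germ line genes (12 genes, among them vasa, oskar and nanos) summed to 6190 to 6540 CPM in controls and 6500 to 6620 CPM with overexpression. Follicle cell products (23 genes) summed to 6290 to 6440 and 6180 to 6680 CPM. Muscle genes (29 genes) summed to 1170 to 1190 CPM in controls and 1090 to 1120 CPM with overexpression, so the groups did not overlap. Of the 28 muscle genes tested, 8 were higher and 20 lower with overexpression. An unadjusted p under 0.05 in edgeR was found for 6 of them, beside 4.92% of all tested genes, and 0 were called. Fat body genes (5 genes) summed to 126 to 156 and 152 to 209 CPM, and haemocyte genes (103 genes, 61 of them under 1 CPM on average) to 640 to 685 and 654 to 662 CPM. The 4 fat body genes tested were all higher with overexpression, 1 of them at an unadjusted p under 0.05 in edgeR, and 0 were called. No listed marker was at 0 in every library. The part of other tissues in the results below was not tested. In bulk ovaries, fewer cells of a type and less RNA per cell cannot be told apart.

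The 5 copies lay on 2 scaffolds of the assembly used in the table. LOC109423337 (gene ID 109423337) occupied positions 797226 to 798780 of scaffold NW_021837367.1. On the same scaffold, LOC115261959 (gene ID 115261959) lay at positions 725099 to 726356, 70.9 kb before it, and LOC115261964 (gene ID 115261964) at positions 1637016 to 1638596, 838.2 kb after it. LOC115265440 (gene ID 115265440) occupied positions 82006001 to 82007248 of scaffold NW_021838153.1. LOC109423338 (gene ID 109423338) lay 62.1 kb after that, at positions 82069383 to 82070735. Each copy had 1 RefSeq transcript in the table and spanned 1248 to 1581 bases. Exon structure and strand are not in the table.

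The neighbourhoods of the 2 groups of copies resembled each other. Within 1 Mb of the Gadd45 genes, 6 gene descriptions occurred on both scaffolds, namely Gadd45 and 5 others. Those 5 were a methyltransferase of electron transfer flavoprotein beta (ETFB), a mitochondrial folate carrier, the membrane traffic GTPase Rab-32, the pigment transporter brown, and a multiple C2 and transmembrane domain protein (MCTP). Their order on NW_021837367.1 was MCTP, Gadd45, ETFB methyltransferase, folate carrier, Rab-32 and brown, and on NW_021838153.1 it was reversed. The ETFB methyltransferase at that place on NW_021837367.1 is LOC115261965 (positions 879011 to 885860), and a further one overlaps Gadd45 copies. LOC115261964 lay beyond brown, outside this shared order. LOC109423337 and LOC115261959 lay within the span of the ETFB methyltransferase gene LOC109423259 (positions 724998 to 862210). Where exons of overlapping genes coincide, reads cannot be told apart unless counting uses strand, and the labels do not say whether it did. Without LOC109423259, the estimates of the 5 Gadd45 copies added up to whole numbers, within 0.02, in 6 of 6 libraries. On the other scaffold the nearest genes were the ETFB methyltransferase LOC115265162, which ended 20266 bases before LOC115265440, and LOC109423258, the planar polarity gene prickle, which began 6004 bases after LOC109423338. Of the other nearest neighbours, LOC109423336 (RNA polymerase II degradation factor 1), before LOC115261959, averaged 204 and 195 CPM in control and overexpression. LOC115261962 (uncharacterized), before LOC115261964, averaged 95.9 and 88.9 CPM. LOC115261965 had at most 14.8 counts in a library.

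**Figure D1:**
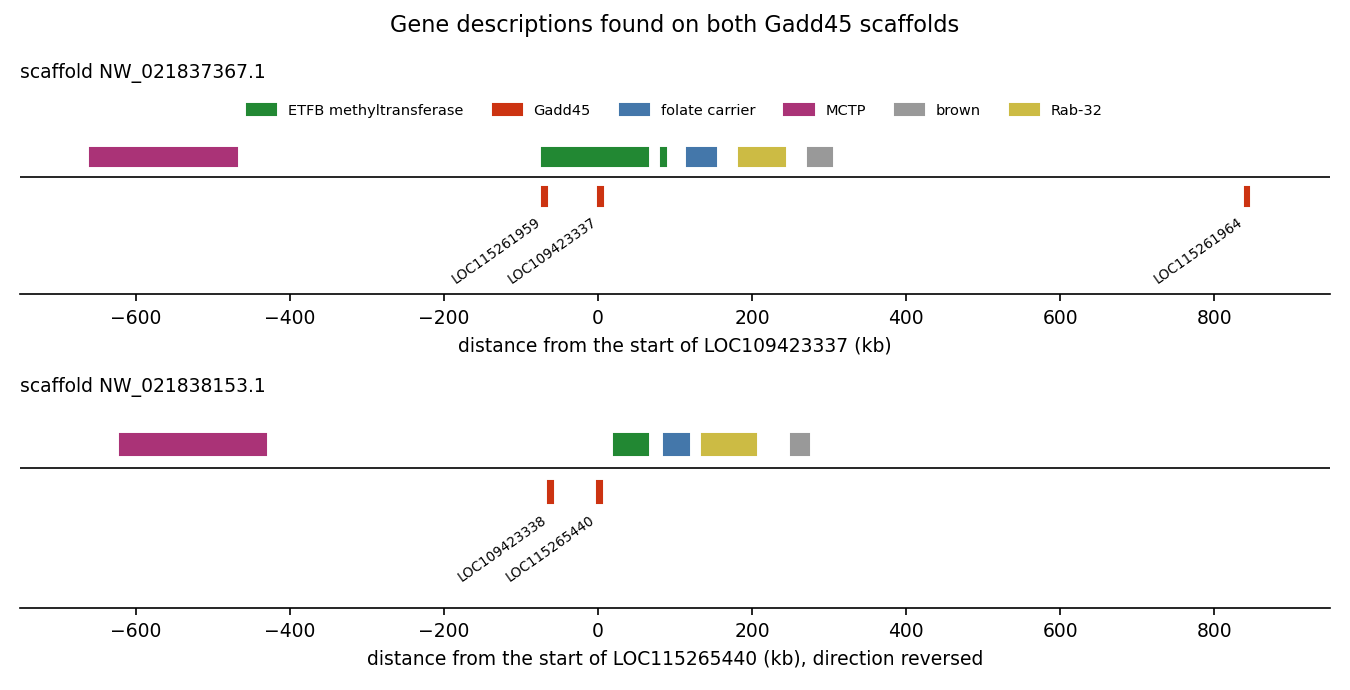
Position of the genes whose description occurs on both Gadd45 scaffolds, as distance in kb from LOC109423337 (upper) and, with the direction reversed, from LOC115265440 (lower). Gadd45 copies are drawn under each line, wider than to scale so that they can be seen, and the other genes above it; LOC115261959 and LOC109423338 lie 70.9 and 62.1 kb away from the abundant copy of their scaffold, and LOC115261964 stands apart from both.

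The same gene IDs were looked up in the RefSeq annotation of a later assembly of the species, AalbF5 (Foshan strain). Of the 5 Gadd45 gene IDs, 2 matched, LOC109423337 and LOC115261964, as did 54.2% of all genes with values. There the 2 genes were direct neighbours, and both lay inside the span of LOC115265162, the ETFB methyltransferase that the deposited table puts on the other scaffold. The next gene along was LOC109423339, the folate carrier of NW_021838153.1, followed by LOC115253596, the Rab-32 gene of NW_021837367.1. Genes that the deposited table splits between 2 scaffolds were thus interleaved in 1 stretch of AalbF5. The 5 Gadd45 rows are called copies here, and whether they are separate genes or versions of fewer genes was not tested.

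Abundance separated the copies into 2 strong and 3 weak ones. Per kb of gene span, a length that may include introns, LOC115265440 stood at 27.9 ± 2.36 CPM per kb in controls and 27.6 ± 2.47 with overexpression (SD, n = 3). LOC109423337 stood at 16.8 ± 2.50 and 11.7 ± 1.23 CPM per kb (SD, n = 3). The other 3 lay at or below 1.3 CPM per kb in either group. LOC115261964 reached 1.2 ± 0.465 and 1.15 ± 0.103, LOC109423338 reached 0.839 ± 0.206 and 1.3 ± 0.366, and LOC115261959 reached 0.419 ± 0.0499 and 0.338 ± 0.301 CPM per kb (SD, n = 3). LOC115265440 exceeded LOC109423337 per kb in each of the 6 libraries, LOC115261959 was the lowest in each, and LOC115261964 and LOC109423338 overlapped. By mean CPM over the 6 libraries, LOC115265440 exceeded 73.9% of all genes with values and LOC109423337 exceeded 67.5%.

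Estimated counts need not be whole, since a read that fits more than one gene can be split between them. The counting program is not named in the labels, so the splits were read from the values themselves. Only 2 of the 30 single values were whole numbers within 0.001. LOC109423337 and LOC115265440 nevertheless added up to whole numbers, within 0.02, in 6 of 6 libraries. In control library 1, for example, 404.53 and 552.47 made 957. The remaining 3 copies added up to whole numbers in 6 of 6 libraries as well, as 17.54, 13.1 and 8.36 made 39 in control library 1. None of the other 9 pairs of copies did so in more than 2 libraries. The estimates thus formed 2 closed pools in these libraries, the abundant pair and the weak trio, and each pool held copies of both scaffolds. The total of a pool does not depend on how its reads were divided, whereas the value of a single copy does.

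**Figure D2:**
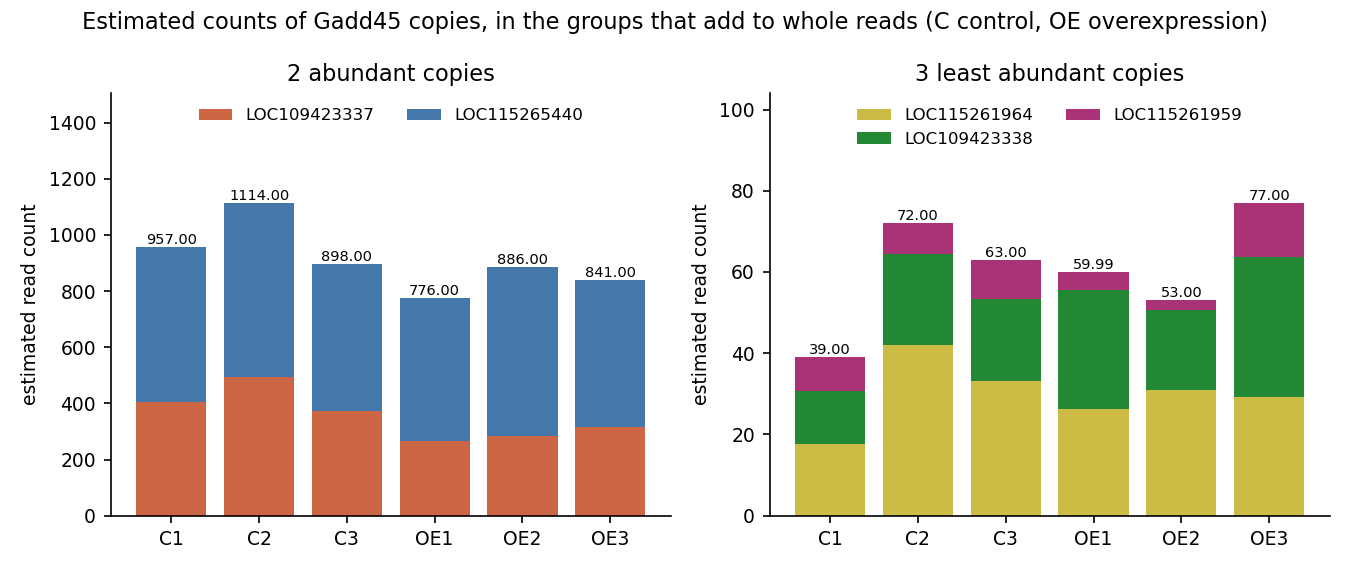
Estimated read counts of the 2 abundant copies (left) and of the 3 weak copies (right) in each library, stacked, with the pool total printed above each bar. Totals are whole numbers within 0.02 in all 6 libraries although the parts are not, and LOC109423337 is the smaller part of the abundant pool in every library.

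The Gadd45 copies were then compared between the libraries labelled overexpression and those labelled control. What the controls received is not given, so a difference between the groups cannot be ascribed to the piRNA alone. LOC109423337 was lower in each overexpression library than in any control, at 69.9% of the control mean, while LOC115265440, with which it divides its reads, stood at 98.8%. No copy passed the test over all genes. LOC109423337 had estimated counts of 404.53, 495.21 and 371.66 in control libraries 1, 2 and 3. It had 266.5, 283.22 and 316.13 in overexpression libraries 1, 2 and 3. The highest overexpression library was thus below the lowest control. Its level went from 26.1 ± 3.89 to 18.2 ± 1.91 CPM (SD, n = 3), which is 69.9% of the control, and the 95% interval of the edgeR fold change ran from 0.561 to 0.868. On the log2 scale this was -0.52 ± 0.14 (SE). The unadjusted p was 0.00502 and the adjusted p 0.963 in edgeR's quasi-likelihood test over 15540 genes. That test called 0.0129% of all genes (2 of 15540) and none of the 4 Gadd45 copies tested, 1 of which had an unadjusted p under 0.05 against 4.92% of all genes. DESeq2 likewise called none of the copies, with an adjusted p of 0.467 for LOC109423337. All overexpression libraries lay below all controls in 1 of the 4 copies and in 5.12% of all genes tested. Whether the study chose Gadd45a on these libraries is not known here, so its direction is not taken as independent evidence.

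LOC115265440, the most abundant copy, had estimated counts of 552.47, 618.79 and 526.34 in the controls. It had 509.5, 602.78 and 524.87 in the overexpression libraries, so that overexpression libraries 1 and 3 lay just below the lowest control by count and library 2 lay within the controls. Control libraries averaged 34.8 ± 2.94 CPM and overexpression libraries 34.4 ± 3.09 CPM (SD, n = 3). The 95% interval of the edgeR fold change was 0.842 to 1.16, with an adjusted p of 0.996. The fold change fitted for LOC109423337 (0.698) lay outside it, but the intervals of the 2 copies overlapped. Both intervals take the divided estimates as counts and leave out the uncertainty of how reads were divided between the copies.

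The weak copies were measured with far fewer reads. LOC115261964 had 17.54, 41.99 and 33.26 counts in controls and 26.22, 31 and 29.16 with overexpression, all 3 of the latter inside the range of the controls. Its edgeR fold change had an interval of 0.564 to 1.60 (adjusted p 0.992). LOC109423338 had 13.1, 22.4 and 20 counts in controls and 29.31, 19.72 and 34.54 with overexpression, so that overexpression libraries 1 and 3 lay above all controls and library 2 did not. Its interval was 0.923 to 2.66 (edgeR adjusted p 0.963). LOC115261959 had 8.36, 7.61 and 9.74 counts in controls and 4.46, 2.28 and 13.3 with overexpression, and it was too low for the edgeR test. Its summed estimates were 25.7 in controls, with a 95% Poisson interval of 16.8 to 37.8, and 20 with overexpression, with an interval of 12.2 to 30.9. These intervals cover counting error only and leave out the division of reads within the weak pool. No difference in this copy was detectable at this depth.

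**Figure D3:**
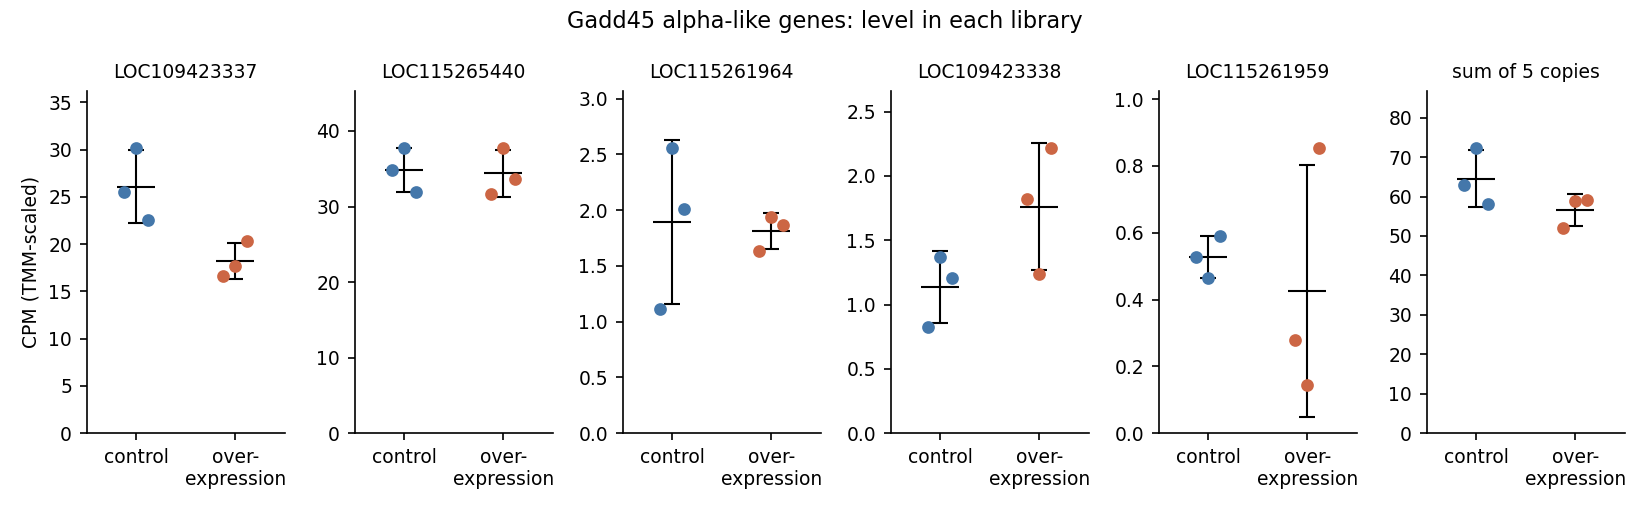
TMM-scaled CPM of each Gadd45 copy and of their sum, 1 point per library, with the group mean and SD (n = 3 per group). LOC109423337 is the copy whose groups do not overlap (26.1 ± 3.89 against 18.2 ± 1.91 CPM), while LOC115265440 stays near 34 CPM in both groups; the vertical scale differs between panels and starts at 0.

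Because reads were divided within the pools, the pool totals were compared as well. The abundant pool held 957, 1114 and 898 reads in controls and 776, 886 and 841 with overexpression. Scaled for depth this was 60.3, 68.0 and 54.4 CPM in controls and 48.3, 55.5 and 54.0 CPM with overexpression, so the groups overlapped at control library 3 and overexpression library 2. The mean went from 60.9 ± 6.81 to 52.6 ± 3.82 CPM (SD, n = 3), 86.4% of the control, and the log2 fold change fitted in edgeR was -0.21 ± 0.10 (SE), with an unadjusted p of 0.0628 and an adjusted p of 0.963. The weak pool held 39, 72 and 63 reads in controls and 59.99, 53 and 77 with overexpression. Its mean was 3.56 ± 0.994 and 4.0 ± 0.846 CPM (SD, n = 3), with an edgeR adjusted p of 0.971. The total over all 5 copies was 62.8, 72.4 and 58.2 CPM in controls and 52.0, 58.8 and 59.0 CPM with overexpression. Overexpression libraries 2 and 3 thus lay above control library 3. The family total gave p = 0.3 in an exact permutation test (two-sided, on log2 CPM), where 0.1 is the smallest value that 3 libraries against 3 allow. As a fitted row in edgeR, the family total had a log2 fold change of -0.19 with a 95% interval of -0.41 to 0.03.

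The division of family counts between the copies was compared next. LOC109423337 held 40.6%, 41.8% and 38.7% of family counts in controls and 31.9%, 30.2% and 34.4% with overexpression, a mean of 40.3% ± 1.56 against 32.2% ± 2.15 (SD, n = 3). The groups did not overlap. Clopper-Pearson 95% intervals for single libraries were computed from rounded estimates. They cover counting error and leave out the division of reads. Among controls the lowest interval was that of control library 3 (35.6% to 41.9%). Among the others the highest was that of overexpression library 3 (31.3% to 37.6%), so those 2 intervals overlapped. LOC115265440 held 55.5%, 52.2% and 54.8% in controls and 60.9%, 64.2% and 57.2% with overexpression, higher in each overexpression library than in any control. LOC109423338 held 1.76% ± 0.398 in controls and 3.12% ± 0.895 with overexpression (SD, n = 3). Its nearest libraries stood at 2.08% and 2.10%, at about 20 counts each, and as shares per kb of gene span its groups overlapped (exact permutation p = 0.2). The other 2 copies overlapped. An exact two-sided permutation test gave p = 0.1 for each of LOC109423337, LOC115265440 and LOC109423338, and 0.167 after adjustment over the 5 copies, where 0.1 is the smallest value this test can give. Within the copies of its own scaffold, LOC109423337 held 91.5% ± 2.24 in controls and 89.1% ± 0.826 with overexpression (SD, n = 3), a difference of -2.40 points with overlapping groups (exact permutation p = 0.2). Counted per LOC109423337 read, the other abundant copy had 1.37, 1.25 and 1.42 reads in controls and 1.91, 2.13 and 1.66 with overexpression.

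The neighbouring genes allow the same division to be read outside the family. As in Gadd45, the copies of each of the other 5 descriptions on the 2 scaffolds added up to whole numbers in 6 of 6 libraries. The share of counts assigned to NW_021837367.1 was 43.2%, 45.9% and 43.1% for Gadd45 in controls and 35.5%, 33.7% and 39.1% with overexpression. For the ETFB methyltransferase it was 27.0%, 33.9% and 31.1% in controls and 26.2%, 24.1% and 25% with overexpression, without overlap. This share rested on 95 or more counts per library over both scaffolds. On NW_021837367.1, LOC109423259 had 18.7, 33.78 and 25 counts in controls and 27.18, 17.04 and 26.13 with overexpression, with overlap. LOC115261965 had at most 14.8. The copy on the other scaffold, LOC115265162, was higher in each overexpression library than in any control. In Gadd45, by contrast, LOC109423337 was lower and LOC115265440 overlapped. For Rab-32 the share was 46.7%, 49.3% and 43.7% against 43.1%, 34.7% and 46.6%, and the groups overlapped. For MCTP it was 29.0%, 34.5% and 23.1% against 25.5%, 20% and 29.4%, also with overlap. The folate carrier ranged from 28.6% to 34.0% in controls and from 28.2% to 29.3% with overexpression. Brown, with as few as 6 counts in a library, went the other way, from 10.7% ± 5.71 to 16% ± 14.4 (SD, n = 3), with overlap.

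The extreme libraries were compared between descriptions. Control library 2 had the highest share for Gadd45, the ETFB methyltransferase, MCTP and Rab-32, and control library 1 had it for the folate carrier. Overexpression library 2 had the lowest share for all 5 of them, but the highest for brown (27.8%). Between groups, the shares differed by 5.26 percentage points for brown, -7.99 for Gadd45, -5.52 for the ETFB methyltransferase, -5.12 for Rab-32, -3.91 for MCTP and -2.07 for the folate carrier. Exact two-sided permutation tests gave p = 0.1 for Gadd45 and the ETFB methyltransferase, 0.2 for Rab-32, 0.5 for MCTP and brown and 0.3 for the folate carrier, and at least 0.3 after adjustment over the 6 descriptions. The comparison of neighbours was chosen after values had been seen, and the part of these differences in the Gadd45 result was not tested.

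**Figure D4:**
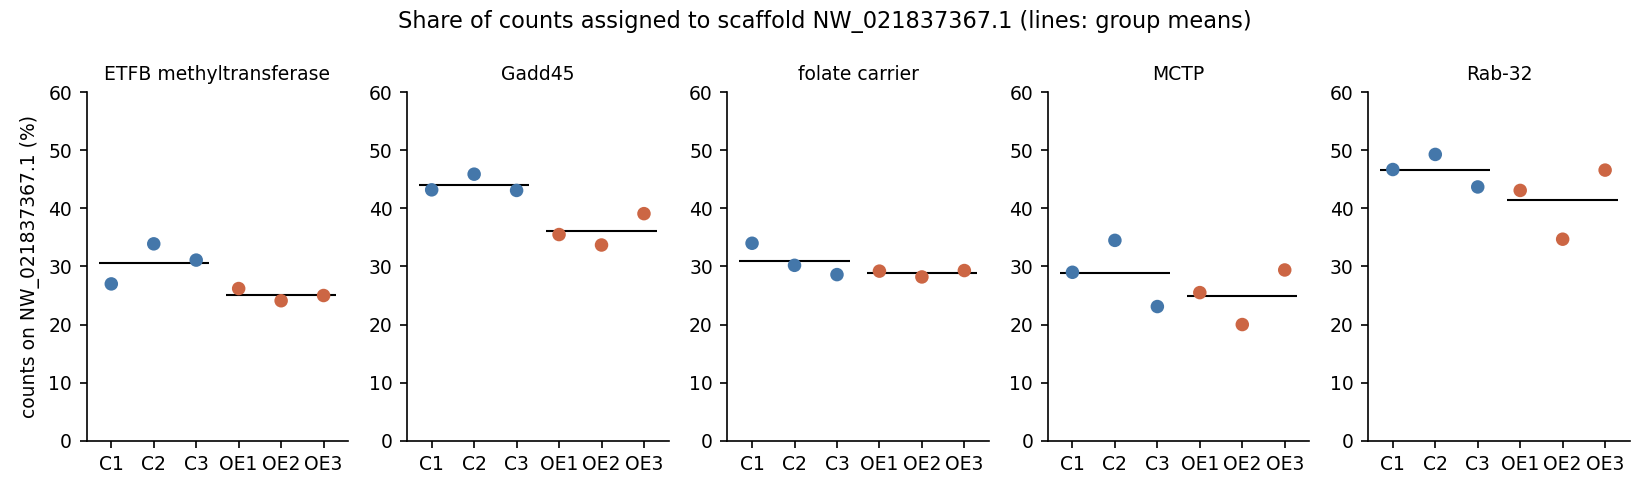
Share of estimated counts assigned to scaffold NW_021837367.1 in each library (C control, OE overexpression, horizontal lines for group means), for Gadd45 and 4 neighbouring gene descriptions that occur on both scaffolds. Overexpression library 2 is the lowest point in each panel, and the groups are separate for Gadd45 and the ETFB methyltransferase only. Brown, with as few as 6 counts in a library, is not drawn, and overexpression library 2 was its highest (27.8%).

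Single genes of the smaller scaffold were compared as well. All 9 tested genes of NW_021837367.1 had a negative log2 fold change, 2 of them Gadd45 copies, whereas 49.6% of all tested genes did. The 7 that are not Gadd45 genes lay between -0.20 and -0.06, and none had an unadjusted p under 0.05 in edgeR. Without control library 2 the number of genes with a negative value was 5 of 9, without overexpression library 2 it was 7 and without overexpression library 1 it was 8. On NW_021838153.1 the ETFB methyltransferase LOC115265162 was higher in each overexpression library (95.15, 100.16 and 85.47 counts) than in any control (72.26, 72.72 and 65.5 counts). In edgeR it differed by 0.44 ± 0.17 (SE) on the log2 scale (unadjusted p 0.0284, adjusted p 0.963). Summed over both scaffolds, the ETFB methyltransferase had 6.24, 6.71 and 5.75 CPM in controls and 8.03, 8.27 and 7.33 CPM with overexpression, without overlap (126% of the control, exact permutation p = 0.1). The folate carrier stood at 366 ± 12.8 and 354 ± 8.76 CPM and brown at 1.25 ± 0.406 and 0.822 ± 0.397 CPM (SD, n = 3). Rab-32 stood at 235 ± 9.96 and 244 ± 5.98 CPM and MCTP at 80.7 ± 7.58 and 82.4 ± 4.03 CPM in control and overexpression (SD, n = 3).

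**Figure D5:**
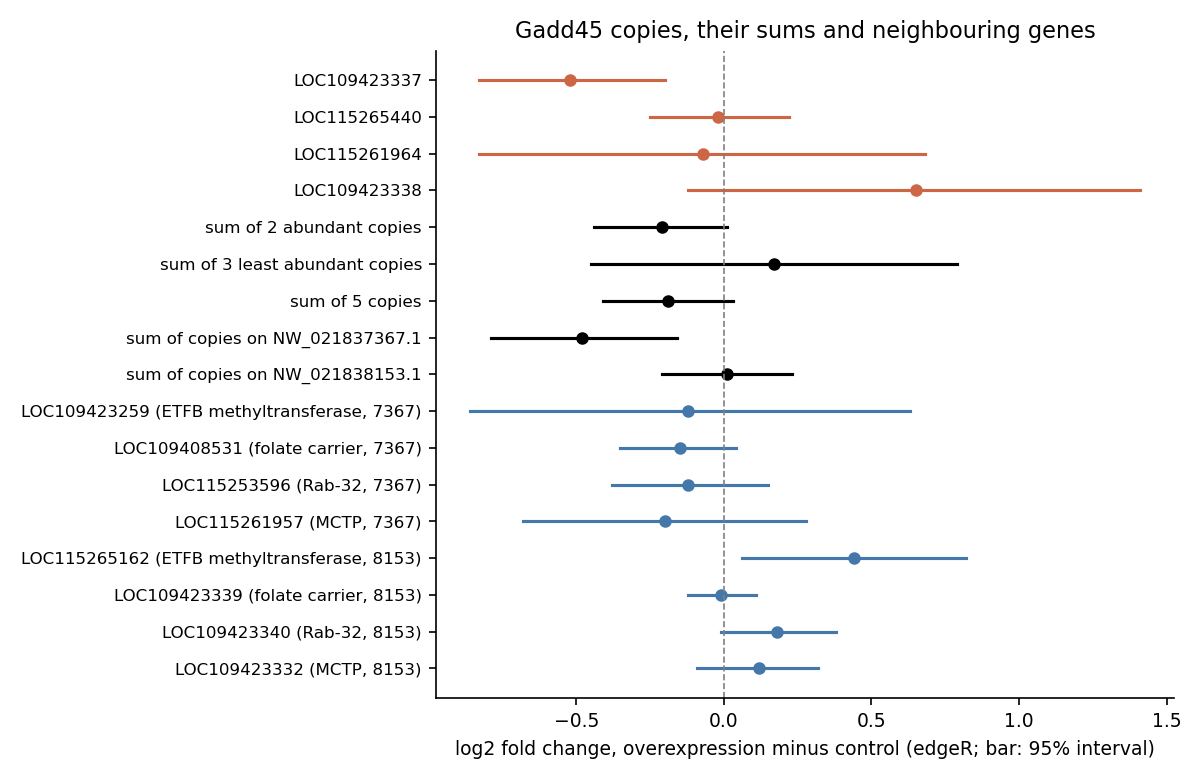
Log2 fold changes (overexpression minus control) with 95% intervals from edgeR for the 4 tested Gadd45 copies (orange), sums of copies (black) and neighbouring genes (blue, with the last digits of their scaffold, NW_021837367.1 or NW_021838153.1). The intervals of LOC109423337 (-0.83 to -0.20), of the copies summed on its scaffold (-0.79 to -0.16) and of LOC115265162 (0.06 to 0.82) exclude 0 before adjustment over all genes, and that of the abundant pool (-0.44 to 0.01) does not.

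Genes whose level over the 6 libraries was most like that of a Gadd45 copy were sought among 11423 tested genes with at least 5 CPM, as a description. For LOC109423337 the closest were LOC109622498, a glycosyltransferase gene annotated as 2-hydroxyacylsphingosine 1-beta-galactosyltransferase-like (Pearson r of log2 CPM 0.996), LOC115264188, serine/arginine repetitive matrix protein 1-like (0.990), and LOC109424416, the ribosome biogenesis gene periodic tryptophan protein 2 (0.984). For LOC115265440 they were LOC109419381, splicing factor ESS-2 (0.993), LOC109408119, the spliceosomal helicase DDX23 (0.983), and LOC109429590, the ribosome biogenesis gene TSR1 (0.974). The 3 genes closest to LOC109423337 were, like it, lower in each overexpression library than in any control, as were 5.12% of all genes tested. They were picked for likeness to a copy with that pattern, so their direction is not separate evidence. Whether such r values over 6 libraries exceed what a search of 11423 genes gives by chance was not tested. The abundant copies had an r of 0.392 with each other, rank 2700 among the genes compared with LOC109423337. Neither was thus among the genes most like the other. The 2 copies divide 1 pool of reads, so their values are not independent.

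Genes known to act with Gadd45 in other animals were taken by description. Of 33 such genes 31 were tested, 18 higher and 13 lower, with a median log2 fold change of 0.05 beside 0.00 over all genes, of which 7834 were higher and 7706 lower. None was called by edgeR or by DESeq2. An unadjusted p under 0.05 in edgeR was found for 3 of the 31, 1 higher and 2 lower, beside 764 of 15540 genes (4.92%). Leaving out control library 1 made that number 5, and leaving out either control library 3 or overexpression library 1 made it 1. The list also took in LOC109397864, the patterning gene Sog, through a match to the word dorsal.

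Among the upstream kinases (7 genes, 2 higher and 5 lower), MAP3K4, the kinase bound by mammalian Gadd45 (LOC109430716), had a mean of 14 CPM in controls and of 13.7 CPM under overexpression. The most abundant gene of this role, LOC109431380 (MAP kinase kinase 6), stood at 187 and 194 CPM. A gene for hemipterous, the JNK kinase of *Drosophila* (LOC109402022), averaged 123 and 101 CPM, a log2 difference of -0.27 ± 0.09 (SE) with an edgeR unadjusted p of 0.0168 and an adjusted p of 0.963. Summed over its 3 genes, hemipterous was at 348 ± 20.1 and 334 ± 10.6 CPM (SD, n = 3).

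Among JNK and p38 genes (6 genes, 4 higher and 2 lower), the JNK gene LOC109429565 averaged 182 and 153 CPM (log2 fold change -0.25, edgeR unadjusted p 0.0316). The more abundant JNK gene LOC109429982 averaged 243 and 263 CPM (log2 fold change 0.11, edgeR unadjusted p 0.183). The 3 JNK genes summed to 430 ± 11.5 and 422 ± 9.80 CPM (SD, n = 3), and in 6 of 6 libraries to whole numbers. The 3 genes of the kinase p38b summed to 155, 148 and 148 CPM in controls and 162, 160 and 158 CPM with overexpression, without overlap (exact permutation p = 0.1). None of those 3 genes had an unadjusted p under 0.05 in edgeR. No other sum over partner genes sharing a description separated the groups (exact permutation p of 0.2 or more for each). The p38b value of 0.1 is the smallest that this test can give, and it was not adjusted for the number of sums. Of the JNK-responsive transcription factors, the Jun gene (LOC109408179, transcription factor AP-1) averaged 39.7 and 45.6 CPM. This was 0.20 ± 0.08 (SE) on the log2 scale (edgeR unadjusted p 0.031, adjusted p 0.963). The Fos gene kayak (LOC109410132) averaged 66.6 and 69.4 CPM.

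Of the cell cycle partners (9 genes, 5 higher and 4 lower), cyclin B LOC115270215 averaged 639 and 633 CPM, and the CDK1 genes LOC109429567 and LOC109429984 averaged 65.8 and 68.5 CPM and 43.0 and 45.9 CPM. For p53, which induces Gadd45a in mammals, LOC109417254 averaged 122 and 130 CPM. The NF-kappaB factor dorsal (LOC109411712) averaged 153 and 146 CPM. None of these had an unadjusted p under 0.05 in edgeR.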

How the data were processed

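Ovary RNA of 3 control and 3 overexpression libraries was sequenced, and groups follow the genotype labels. Expression was deposited by the authors as estimated counts in 1 table, which per the values is not scaled between libraries. HISAT and Bowtie2 are named in the submitters' processing notes, without roles. For the counting program, genome build and read filters, nothing is given in the sources used here. Rows blank in all libraries (10950) were left out, and every value column had its sample. Estimates were rounded to whole numbers for edgeR 4.0.16 (R 4.3.3), filtered with filterByExpr at its defaults and scaled by TMM, and overexpression was tested against control with the quasi-likelihood F test and Benjamini-Hochberg adjustment over all genes (limit 0.05). SEs come from the log2 fold change and F, and 95% intervals use the test's degrees of freedom. CPM and shares use unrounded estimates. Shares and summed levels were compared by exact permutation over libraries. Summed copies replaced their members in the same fit. The procedure was tested on simulated counts. Alternatives were DESeq2 1.42.0 (size factors or Wald test), limma-voom (limma 3.58.1), library size alone, other filters, a replicate block and leaving out each library.

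Members and lists were chosen with earlier results of these data known. Genes named were every member, its nearest neighbours, the 3 most alike genes per abundant copy, and partner genes at an unadjusted p under 0.05 or most abundant in their role. Neighbours with a description on both scaffolds, MAP3K4, the CDK1 genes, Sog and the sums over JNK, p38b and hemipterous genes were added after values were seen. RefSeq names of AalbF5 served for neighbour order only.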

Additional observations from a re-analysis of the deposited data

How the results depend on the processing

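LOC109423337 kept a negative log2 fold change in all 13 alternatives tried, from -0.616 to -0.400, at unadjusted p of 0.00117 to 0.0206 and adjusted p of 0.467 to 0.998. Over all results, 203 values were compared with the reported ones, of which 181 did not change direction or call, or moved by less than the replicate spread. Of the rest, 12 reversed direction and 10 moved otherwise. No Gadd45 copy, and no gene of the partner list, gained a call under any alternative. Leaving out 1 library at a time gave -0.089 to 0.048 for the log2 fold change of LOC115265440 and -0.332 to 0.205 for LOC115261964, with a change of sign without control library 2 or overexpression library 1 in both. For LOC115261959 the log2 ratio of mean CPM was -0.31 with all libraries and then ran from -1.326 to 0.103. The share of family counts of LOC115261964 then differed by -0.296 to 0.594 percentage points and that of LOC115261959 by -0.443 to 0.160, and the NW_021837367.1 share of brown by -0.657 to 13.3. The partner list then had 1 to 5 genes at an unadjusted p under 0.05 and a median log2 fold change of -0.01 to 0.06, and 0 to 2 genes were called over the whole table (0 without control library 1 or 2 or overexpression library 1 or 3). Within the copies of its own scaffold, the share of LOC109423337 differed by -2.40 points in place of -8.19, that of LOC115265440 by -1.77 points and that of LOC115261959 by 0.081 points, the last 2 opposite in direction to the family share. With only the 2 copies on NW_021838153.1, chosen after seeing the data, the summed level changed by 0.009 on the log2 scale (exact permutation p = 0.8). DESeq2 called 15 genes over the whole table, none of them a Gadd45 copy.

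The labels do not say whether libraries of the same number were paired. Deviations of same-numbered libraries correlated at -0.012, 0.027 and 0.006, which shows no shared effect but cannot tell whether they were collected together. With a replicate block, 0 genes were called over the whole table (edgeR) and the log2 fold change of LOC109423337 was -0.515 (unadjusted p 0.012). Depth limits the 3 weak copies, whose counts lay between 2.28 and 41.99 per library.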
